A study of Mus musculus with 48 samples.

Results

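The genes described are 10 markers of T cells, B cells and antibody-secreting cells, taken by symbol from 29221 genes counted in whole mouse liver: Cd3d, Cd3e, Cd3g, Cd4, Cd8a, Cd8b1, Cd79a, Cd79b, Ighm and Jchain. All 10 were found in the deposited counts. The livers came from 48 mice with a floxed Pparg gene, in 10 groups by sex, diet and virus. Males were fed a high fat (HF) diet for 34 weeks, or the HF diet for 18 weeks and then one rich in fat, fructose and cholesterol (HFCF) for 16 weeks, with 6 livers per group. Females had the same 2 diets or a low fat (LF) diet for 34 weeks, with 4 livers per group. After 16 weeks the mice received AAV8-TBG-Cre, a virus whose hepatocyte promoter drives Cre recombinase, or AAV8-TBG-null, which carries no Cre and gave the controls. The labels name the LF livers healthy, the HF livers steatotic and the HFCF livers as non-alcoholic steatohepatitis, and give no age beyond adult. Deletion was therefore directed at hepatocytes, and the lymphocytes of every group were not the target of the virus.

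Mature T cells carry an antigen receptor whose chains are bound to the CD3 proteins, which pass the signal into the cell. The co-receptor CD4 marks helper cells that read MHC class II, and CD8, a pair of alpha and beta chains, marks cytotoxic cells that read MHC class I. B cells signal through CD79A and CD79B bound to membrane antibody, and antibody-secreting cells add the J chain to the IgM they release. The liver normally holds all of these cells, together with natural killer cells and its own macrophages, and lymphocytes are known to accumulate in steatohepatitis.

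Libraries held 15338239 to 22072884 reads on genes (median 17304085), and no 2 replicates of a group agreed within sampling noise. Pparg was counted over the whole gene and was not lower in any group given Cre (41.2 ± 14.1 against 34.3 ± 3.95 CPM, reads scaled to a common library size, in HF males, SD, n = 6 each). The groups are therefore called labelled knockouts. The hepatocyte markers summed to between 37800 and 120000 CPM per library, and the pancreas markers Ctrb1 and Prss2 had a median of 0 reads over the 48 libraries, as did Madcam1, an address molecule of lymphoid vessels. Of 7 lymphoid tissue stroma markers only 3 were found in the counts. Among them the chemokine Cxcl13 reached 26.5 CPM in female HF labelled-knockout replicate 3, so Madcam1 does not show that lymphoid tissue was absent. Sex and the set of animals go together, so males and females cannot be told apart from their cohorts. The labels do not say that the mice shared a litter or a cage, and each library is a separate numbered mouse.

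The levels of the markers were low, and the antibody genes stood above the T cell genes. Values are CPM scaled with TMM factors, which correct for differences in library composition. Ighm, the constant region of IgM, averaged 16.5 CPM per kb of gene length over the 48 libraries, and Jchain, the chain that links IgM and IgA units, averaged 2.26 CPM per kb. The B cell receptor genes Cd79b and Cd79a averaged 1.40 and 1.15 CPM per kb. The 6 T cell genes lay between 0.253 CPM per kb (Cd3e) and 0.340 CPM per kb (Cd8a). Median reads per library were 10 for Cd3d, 19 for Cd3e, 15 for Cd3g, 17 for Cd4, 19 for Cd8a and 6 for Cd8b1, against 27 for Cd79a, 32 for Cd79b, 84 for Jchain and 437 for Ighm. Cd8b1 had 0 reads in 3 libraries. In whole tissue, fewer cells of a type and less RNA per cell cannot be told apart.

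These read numbers limit the precision through the counting error, which is only part of the spread. For Cd8b1 the counting error alone was 43.7% of the mean, and the spread between livers of a group averaged 66.2%. For Cd3e the same values were 23.7% and 43.6%, and for Ighm 4.42% and 48.6%. In each of these genes the spread between livers exceeded the counting error. Ighm belongs to a family of similar constant-region genes, and how reads shared among them were counted is not given in the sources used here. Cd3e overlaps 2 other annotated genes, of which neither had more than 4 reads in a library.

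**Figure D1:**
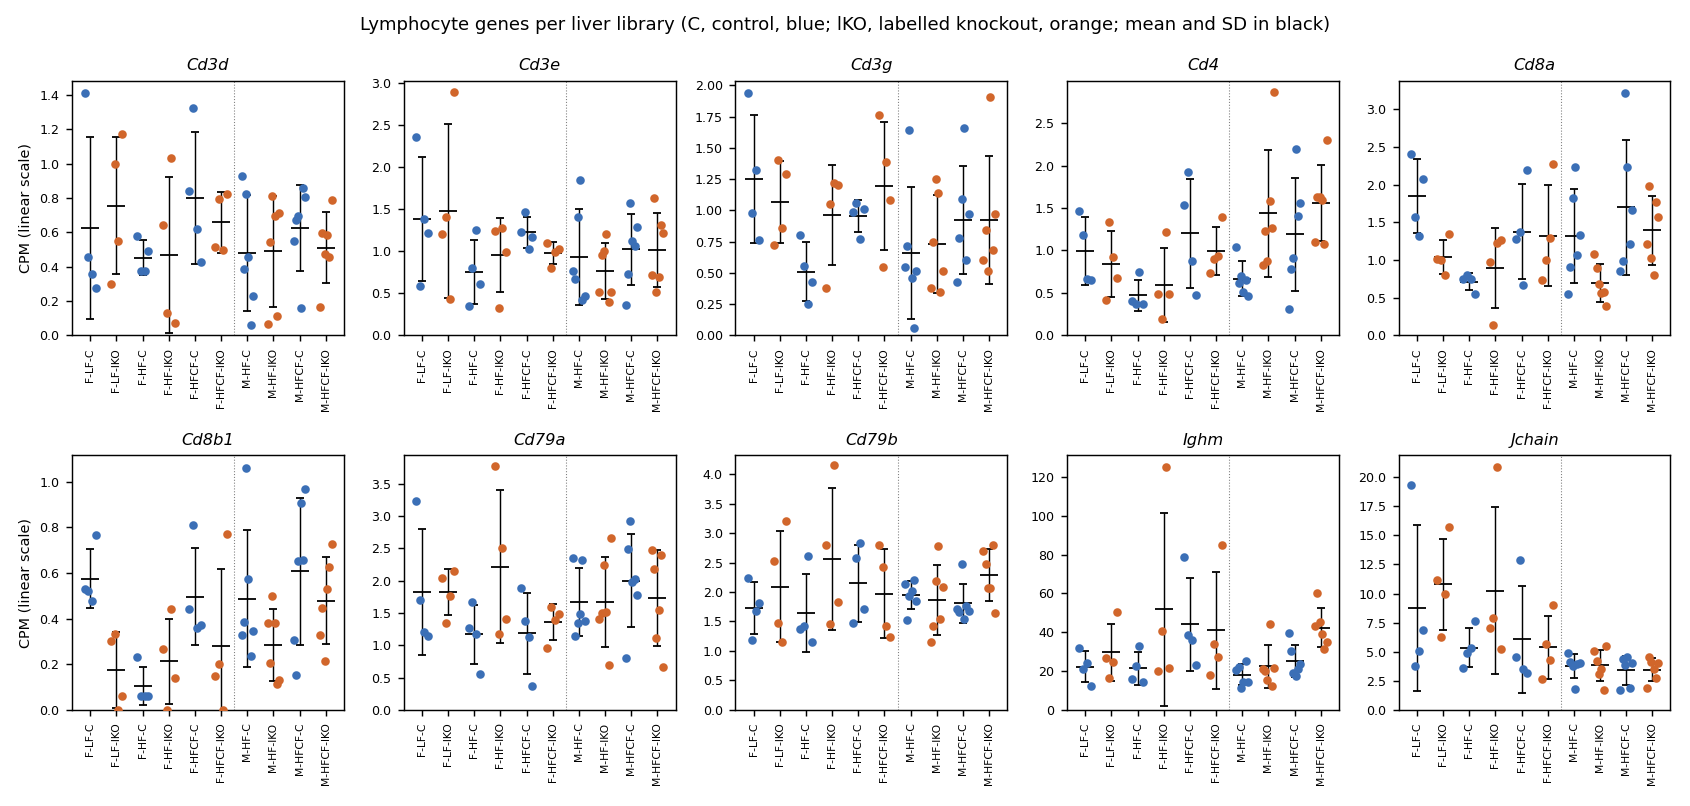
CPM (linear y axis) of the 10 genes in each of the 48 liver libraries, by group on the x axis (F, female; M, male; C, control; lKO, labelled knockout); points are libraries, black bars the group mean and SD. The groups overlap in most panels, and 1 female HF labelled knockout stands at 125.0 CPM of Ighm and 20.9 CPM of Jchain.

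The members lie on 6 chromosomes of GRCm38, in the coordinates of the deposited tables. The 3 CD3 genes are neighbours on chromosome 9: Cd3g (44969572 to 44980431, minus strand), Cd3d (44981786 to 44987339, plus strand) and Cd3e (44998740 to 45009627, minus strand). The starts of Cd3g and Cd3d face away from each other across 1355 bases. Cd8b1 (71322788 to 71337494) and Cd8a (71373427 to 71379173) lie side by side on the plus strand of chromosome 6, which also holds Cd4 (124864692 to 124888221, minus strand). Cd79a lies on chromosome 7 (24897381 to 24902197, plus strand), Cd79b on chromosome 11 (106311341 to 106314762, minus strand), Ighm on chromosome 12 (113418558 to 113422730, minus strand) and Jchain on chromosome 5 (88519809 to 88527891, minus strand).

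The 250 bases before the start of Cd8a, a gene that passed the test below, are printed with those of the adjoining pair Cd3d and Cd3g. The sequences are from RefSeq (GRCm38.p6), on the strand of each gene, and each ends at the base before the start in the deposited tables. Capitals mark GGAA or its complement TTCC, the core read by Ets factors.
Cd8a: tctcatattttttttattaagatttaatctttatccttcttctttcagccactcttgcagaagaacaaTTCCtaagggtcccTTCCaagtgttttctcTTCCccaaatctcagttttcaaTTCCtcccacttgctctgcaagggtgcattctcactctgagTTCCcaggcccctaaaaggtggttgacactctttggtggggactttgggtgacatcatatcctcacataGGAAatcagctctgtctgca
Cd3d: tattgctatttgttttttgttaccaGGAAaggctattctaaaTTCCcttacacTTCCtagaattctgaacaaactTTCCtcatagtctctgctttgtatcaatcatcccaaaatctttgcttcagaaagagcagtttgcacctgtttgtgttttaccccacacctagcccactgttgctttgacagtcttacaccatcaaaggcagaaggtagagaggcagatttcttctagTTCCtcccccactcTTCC
Cd3g: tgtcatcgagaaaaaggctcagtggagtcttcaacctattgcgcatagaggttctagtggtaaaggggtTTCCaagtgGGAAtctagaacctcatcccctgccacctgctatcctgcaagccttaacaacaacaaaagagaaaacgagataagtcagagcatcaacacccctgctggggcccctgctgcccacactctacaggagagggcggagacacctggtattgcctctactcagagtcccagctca
The Cd8a window is chr6:71373177-71373426 (plus strand), that of Cd3d chr9:44981536-44981785 (plus strand) and that of Cd3g chr9:44980432-44980681 (minus strand). GGAA on either strand occurred 6 times before Cd8a, 6 times before Cd3d and 2 times before Cd3g, and in 93.4% of 32536 promoters of the table, so its presence does not set these genes apart. The E-box CANNTG occurred 2, 1 and 3 times in the same order, and in 66.2% of promoters. TGTGGT, the Runx core (14% of promoters), and the octamer ATGCAAAT (1.62%) were searched on both strands and had no match in these 3 windows. Of the members, 6 had an entry; Cd4, Cd8b1, Cd79b and Ighm had none.

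Over 15 pairwise comparisons of groups, edgeR's quasi-likelihood F test was applied 130 times to a member, and 20 tests were left out by the filter on low counts. A gene was called where the Benjamini-Hochberg adjusted p over all genes of that comparison was under 0.05. Of the 130, 3 were called, all higher: Cd8a and Ighm on HFCF against HF in male labelled knockouts, and Cd4 in male labelled knockouts against controls on HF. In the 4 tests of interactions, 38 tests of a member gave 0 calls with edgeR and 0 with DESeq2.

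**Figure D2:**
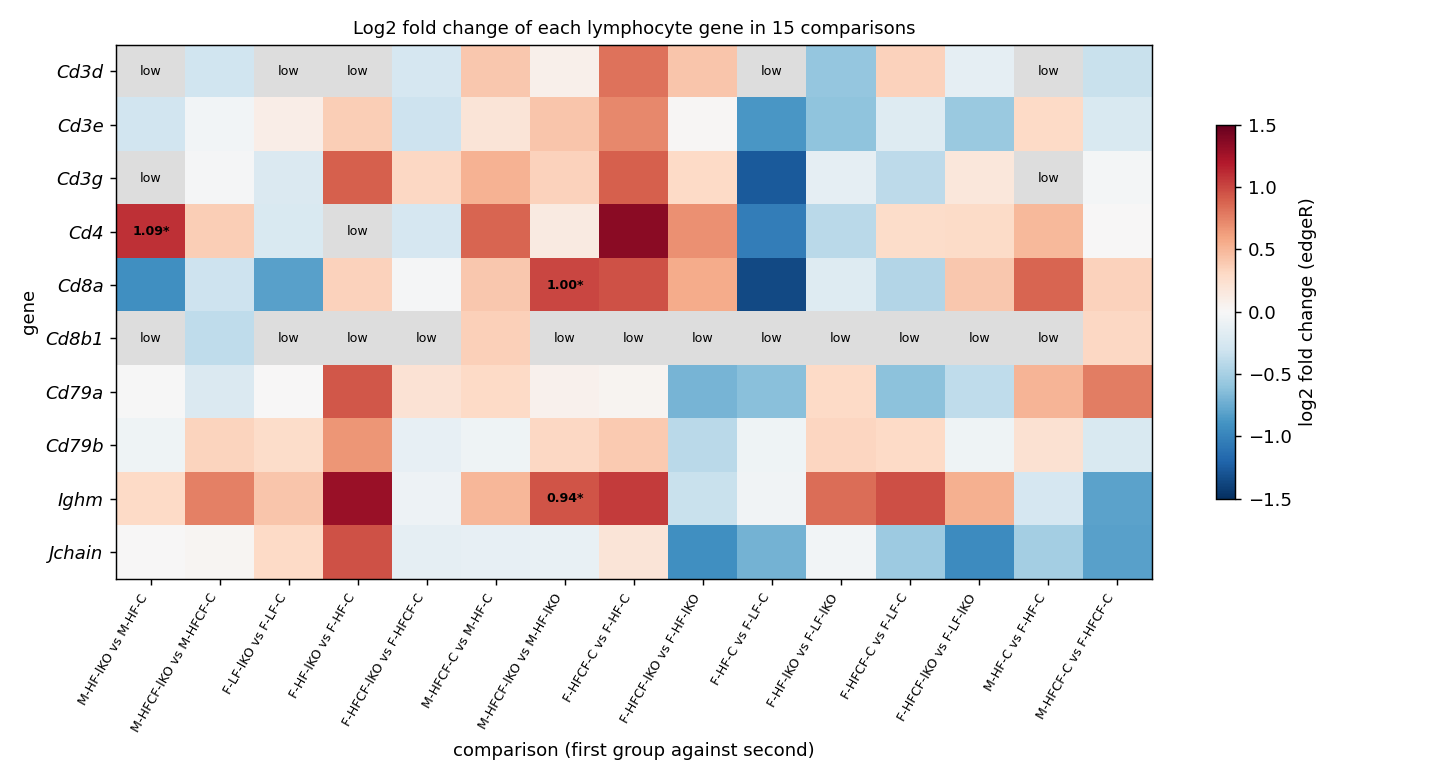
Log2 fold change (colour; red higher, blue lower in the first-named group) of each gene (y axis) in 15 comparisons (x axis), from edgeR; a number and an asterisk mark the 3 called changes, "low" the genes left out by the filter. The called values are 1.09, 1.0 and 0.94, all in males.

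Cd8a, the alpha chain of CD8 and also present on some dendritic cells, was higher on HFCF than on HF in male labelled knockouts. The 6 HF labelled knockouts measured from 0.389 to 1.08 CPM with a median of 0.629, and the 6 HFCF labelled knockouts from 0.797 to 1.98 CPM with a median of 1.39. The ranges overlapped between 0.797 and 1.08 CPM. Cd8a rose by 1.0 on the log2 scale (SE 0.29, edgeR adjusted p = 0.0117), and the call held in all 5 alternative fits and when any 1 of the 12 libraries was omitted (lowest change 0.87, highest adjusted p 0.0336). Reads of Cd8a numbered 66 in the HF group and 158 in the HFCF group.

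Ighm rose in the same comparison. The HF labelled knockouts ran from 12.1 to 44.1 CPM (median 20.7) and the HFCF labelled knockouts from 31.2 to 60.4 CPM (median 41.2). HF replicate 4, at 44.1 CPM, was the only HF library inside the HFCF range, and the other HF libraries measured at most 21.4 CPM. The log2 change was 0.94 (SE 0.25, edgeR adjusted p = 0.00633). It was between 0.81 and 1.25 when each library was left out in turn, with adjusted p from 6.59e-05 to 0.0181, and it held in all 5 alternative fits. Jchain, by contrast, had medians of 3.82 and 3.75 CPM in these groups, and the difference between the changes of Ighm and Jchain was not tested.

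These 2 calls stand against a comparison in which 21.6% of the 14314 genes tested were called higher and 41.7% were called in either direction. Of the 9 members tested, 2 were called higher and 0 lower, so their share called higher was near that of all genes and their share called in either direction was below it. The same 2 had an unadjusted p under 0.05, where 49.2% of all genes did. The median log2 change was 0.31 for the members and -0.02 for all genes. The 7 members that were not called had log2 changes between -0.11 and 0.42. Macrophage and Kupffer cell markers moved with these groups: 10 of 12 were called higher and 1 lower, and they summed to 588 to 922 CPM on HFCF against 363 to 494 CPM on HF. Dendritic cell markers rose in 4 of 8 tested, among them Itgax (log2 2.23) and Flt3 (1.49), and neutrophil markers in 3 of 3 tested. Of the 6 hepatocyte markers 5 fell, and of the 5 red blood cell markers 5 fell. Their part in the changes of Cd8a and Ighm was not tested.

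Cd4 was higher in labelled knockouts than in controls among HF males. CD4 marks helper T cells, and some dendritic cells and macrophages also make it. The 6 controls measured 0.462 to 1.04 CPM with a median of 0.638, and the 6 labelled knockouts 0.828 to 2.86 CPM with a median of 1.25. The highest control lay above the 2 lowest labelled knockouts, which measured 0.828 and 0.872 CPM. Cd4 rose by 1.09 on the log2 scale (SE 0.32, edgeR adjusted p = 0.0272), in a comparison in which 8.57% of 14041 genes were called higher. Of the 7 members tested it was the 1 called, and 2 had an unadjusted p under 0.05, as did 31.8% of all genes; 18.5% of all genes were called in either direction.

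The call for Cd4 was not stable. Labelled-knockout replicate 6 held the highest value of all 48 libraries (2.86 CPM, 44 reads) and the lowest Pparg of its group (18.0 CPM), and without it the log2 change was 0.78 with an edgeR adjusted p of 0.0627. The call was also lost without control replicate 4 (1.03, adjusted p = 0.0561), control replicate 5 (1.08, 0.0518) or control replicate 6 (1.0, 0.0634), and omitting 1 library at a time kept it in 8 of 12 fits. With all 10 groups in one edgeR fit the adjusted p was 0.0527. In this comparison 3 of 5 red blood cell markers rose, and their sum reached 805, 616 and 815 CPM in labelled-knockout replicates 3, 4 and 5 against 165 to 247 CPM in controls. Replicate 6, the library highest in Cd4, had a red blood cell sum of 186 CPM. All 6 hepatocyte markers rose, and of the 12 macrophage and Kupffer cell markers 1 rose and 3 fell, with a median sum of 446 CPM in labelled knockouts and 397 CPM in controls. Their part in the value of Cd4 was not tested.

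The other members did not follow Cd4 in HF males. Cd8a ran from 0.547 to 2.24 CPM (median 1.20) in controls and from 0.389 to 1.08 CPM (median 0.629) in labelled knockouts. It was not called with all libraries, but without control replicate 1, the lowest control, it was called lower (log2 -1.08, edgeR adjusted p = 0.0313). Cd3e had medians of 0.719 and 0.738 CPM in controls and labelled knockouts, Cd79a 1.44 and 1.51, and Jchain 4.01 and 3.82. Uncalled members had log2 changes between -0.92 and 0.30. Cd3d, Cd3g and Cd8b1 fell under the filter.

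The ratio of Cd8a to Cd4 reads within a library does not depend on how libraries are scaled. As a log2 ratio with 0.5 read added to each gene, it averaged 0.86 ± 1.02 (SD, n = 6) in HF male controls and -0.95 ± 1.09 (n = 6) in HF male labelled knockouts. Cd8a had more reads than Cd4 in 5 of 6 controls and in 1 of 6 labelled knockouts, and the ranges overlapped. The difference of -1.82 had a 2-sided exact permutation p of 0.0173, which became 0.26 after adjustment over the 15 comparisons, and so did not pass. The smallest exact permutation p possible is 0.00216 with 6 against 6 libraries, 0.00952 with 6 against 4 and 0.0286 with 4 against 4. After adjustment over 15 comparisons, a single comparison with 4 libraries in a group could not fall under 0.05. Failure of those comparisons therefore does not show that their groups were alike. None of the other comparisons had an unadjusted exact permutation p under 0.113.

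**Figure D3:**
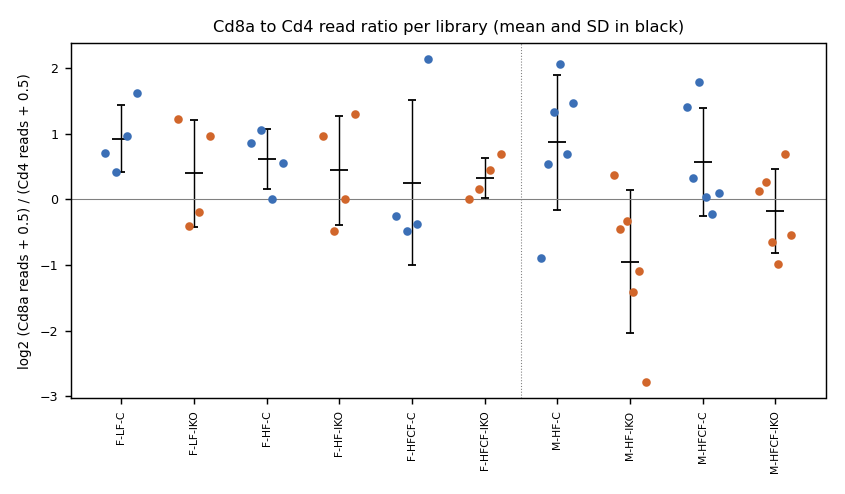
Log2 ratio of Cd8a to Cd4 reads (y axis, 0.5 read added to each) per library by group (x axis), with group mean and SD in black. HF male controls average 0.86 and HF male labelled knockouts -0.95, with overlapping ranges.

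In HFCF males, 0 of 10 members were called between labelled knockouts and controls with edgeR (2.21% of all genes were), 1 had an unadjusted p under 0.05 (14.2% of all genes), and the DESeq2 Wald test called 1. That gene was Ighm, which ran from 17.5 to 39.5 CPM (median 22.4) in controls and from 31.2 to 60.4 CPM (median 41.2) in labelled knockouts. The upper 2 controls, at 30.5 and 39.5 CPM, lay near or inside the labelled-knockout range. Without control replicate 1, the highest control, the log2 change was 0.92 with an edgeR adjusted p of 0.00319. Control replicate 1 stood apart from its group in other genes too. Its macrophage and Kupffer cell markers summed to 408 CPM, the lowest of the group (median 722 CPM). The antibody gene Igkc was also lowest there, at 3.79 CPM (group median 13.9 CPM). Why that library differed was not tested. With that library kept, Ighm was also called by the DESeq2 Wald test (adjusted p = 0.00713) and by edgeR with no filter (0.0308), so the call turned on the method as well as on the library. With all libraries and the filter, the log2 change of Ighm was 0.76 (SE 0.19, edgeR adjusted p = 0.0561). The other members had log2 changes from -0.38 to 0.37.

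On HFCF against HF in male controls, 0 of 10 members were called (22.3% of all genes were), 2 had an unadjusted p under 0.05 (36.3% of all genes) and DESeq2 called 0. Cd4 ranged from 0.462 to 1.04 CPM on HF and from 0.306 to 2.19 CPM on HFCF. HFCF replicate 1 held the lowest Cd4 of these groups, at 0.306 CPM. It is the control that stood apart from its group above in macrophage markers and Igkc. Without that library Cd4 was called higher (log2 1.05, edgeR adjusted p = 0.0125). Of the 10 members 8 had a positive log2 change, between -0.12 and 0.87 in all, with a median of 0.38 against 0.01 for all genes. In the same comparison 9 of 12 macrophage and Kupffer cell markers rose, and their part in these values was not tested.

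In female controls the HF group had the lowest mean of the 10 groups for Cd3d, Cd3e, Cd3g, Cd4, Cd8b1, Cd79a and Cd79b. Cd8a measured 2.41, 1.57, 1.32 and 2.08 CPM in the 4 LF controls, 0.75, 0.805, 0.747 and 0.551 CPM in the 4 HF controls, and 1.28, 1.37, 0.67 and 2.19 CPM in the 4 HFCF controls. The LF and HF groups did not overlap for Cd8a, while HFCF replicate 3 lay among the HF values. Cd8b1, the beta chain of CD8, measured 0.53, 0.523, 0.479 and 0.767 CPM on LF, 0.231, 0.0619, 0.0623 and 0.0613 CPM on HF, and 0.444, 0.809, 0.361 and 0.373 CPM on HFCF. Its HF values came from 7 reads in 4 libraries, against 39 reads on LF and 39 on HFCF, and neither LF nor HFCF overlapped HF. How many of all genes had groups without overlap was not counted, so the separations of Cd8a and Cd8b1 are descriptions only.

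None of these differences passed the edgeR test with the filter on low counts. For HF against LF in female controls, 0 of 8 members were called with edgeR (0.696% of all genes were), 3 had an unadjusted p under 0.05 (16.3% of all genes), and the DESeq2 Wald test called 1, Cd8a (log2 -1.36, adjusted p = 0.0177). All 8 log2 changes were negative, from -1.35 to -0.05. For HFCF against HF in female controls, 0 of 9 were called (30.8% of all genes were), 4 had an unadjusted p under 0.05 where 44.4% of all genes did, and DESeq2 called 2, Cd4 and Ighm. All 9 log2 changes were positive, from 0.04 to 1.35, with a median of 0.82 against -0.02 for all genes. In this comparison 9 of 12 macrophage and Kupffer cell markers rose (median log2 change 1.47), 3 of 7 dendritic cell markers tested rose and 3 of 6 hepatocyte markers fell; their part in the members' values was not tested. The 2 comparisons share the 4 HF control libraries, so their opposite signs are not separate observations.

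Single libraries moved the calls between HFCF and HF female controls. Without HF control replicate 1, Cd3g was called higher (log2 1.22, edgeR adjusted p = 0.0232), and without HF control replicate 3, Ighm was (1.33, 0.0461). Without HFCF control replicate 3, Cd8a was called higher (1.17, 0.024). Without HFCF control replicate 5, both Cd4 (1.61, 0.0342) and Ighm (1.26, 0.0406) were. HF control replicate 1 also stood apart in Themis, at 17.0 CPM against 0.743 to 2.8 CPM in the other 3 HF controls.

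Cd8b1 was left out of most comparisons by the filter on low counts. With no filter it was higher on HFCF than on HF in female controls (log2 2.17, SE 0.64, edgeR adjusted p = 0.0334) and higher in male than in female HF controls (log2 2.13, SE 0.64, adjusted p = 0.0473). Between HF and LF female controls the unfiltered log2 change was -2.35 (SE 0.64) with an adjusted p of 0.134. Both unfiltered calls rest on the same 7 reads of the female HF controls. In the male against female HF controls 0 of 7 members were called with the filter (18.1% of all genes were) with edgeR and 0 with DESeq2, and 1 had an unadjusted p under 0.05 (33.9% of all genes).

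In females on LF, 0 of 8 members were called between labelled knockouts and controls (0.0% of all genes were) and 1 had an unadjusted p under 0.05 (2.49% of all genes). Cd8b1 measured 0.3, 0.334, 0.0 and 0.0615 CPM in the LF labelled knockouts and did not overlap the LF controls. How many of all genes did so was not counted, and the unfiltered edgeR adjusted p of Cd8b1 was 0.999. On HF, 0 of 7 were called (0.0% of all genes were) and 2, Ighm and Jchain, had an unadjusted p under 0.05 (8.03% of all genes). Both were highest in labelled-knockout replicate 3, described below. All 7 log2 changes were positive, from 0.34 to 1.29, and this comparison uses the same HF controls again. Neutrophil markers summed to 6.12 to 95.7 CPM in these labelled knockouts and to 3.61 to 9.78 CPM in the controls. Their part in the members' values was not tested. On HFCF, 0 of 9 were called (0.0534% of all genes were), 0 had an unadjusted p under 0.05 (8.95% of all genes), and log2 changes lay between -0.31 and 0.31. DESeq2 called 0 members in each of these 3 comparisons.

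One female HF labelled knockout, replicate 3, carried the highest Ighm, Jchain and Cd79b of all 48 libraries. Its Ighm was 125.0 CPM against 20, 40.7 and 21.5 CPM in the other 3 livers of its group. Jchain was 20.9 CPM against 7.05, 7.89 and 5.2 CPM, and Cd79b, a partner of membrane antibody, 4.16 CPM against 2.8, 1.45 and 1.83 CPM. The same library held 26.5 CPM of Cxcl13, the chemokine that draws B cells into follicles, against 0.789 to 2.58 CPM in the rest of the group. Its macrophage and Kupffer cell markers summed to 717 CPM against 378 to 427 CPM, and its red blood cell markers to 397 CPM against 80.6 to 368 CPM; their part in these values was not tested. Its Cd79a, at 2.5 CPM, was below the 3.77 CPM of replicate 1.

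Among the female labelled knockouts, diet gave 0 calls of 9 members for HFCF against HF (14.5% of all genes), 0 of 9 for HF against LF (0.155%) and 0 of 9 for HFCF against LF (12.0%), with 0, 0 and 1 unadjusted p under 0.05 (30.2%, 13.4% and 27.5% of all genes). DESeq2 called 0, 0 and 1, the last being Jchain. Jchain measured 11.2, 6.28, 9.97 and 15.7 CPM on LF and 2.65, 5.66, 4.25 and 9.01 CPM on HFCF, where the highest HFCF value alone lay within the LF range. HFCF labelled-knockout replicate 1, at 2.65 CPM, also stood apart in hepatocyte markers (111000 CPM against 61500 to 77500 CPM in the rest of the group). Without HFCF labelled-knockout replicate 4, the highest of its group, the log2 change was -1.31 with an edgeR adjusted p of 0.0471. In female controls on HFCF against LF, 0 of 9 were called (35.2% of all genes were), 1 had an unadjusted p under 0.05 (46.3% of all genes) and DESeq2 called 0. That gene was Ighm, with 31.7, 21.1, 24.3 and 12.1 CPM on LF and 78.6, 38.7, 36.1 and 23.1 CPM on HFCF, called higher without LF control replicate 1 (log2 1.21, edgeR adjusted p = 0.0272) or HFCF control replicate 5 (1.19, 0.0312).

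Jchain and Ighm differed in their pattern over the groups. Group medians of Jchain ran from 3.75 to 4.01 CPM in the 4 male groups and from 4.05 to 10.6 CPM in the 6 female groups. Group medians of Ighm ran from 17.5 to 41.2 CPM in males and from 19.2 to 37.4 CPM in females. Between male and female HFCF controls, 0 of 10 members were called (2.63% of all genes were), 1 had an unadjusted p under 0.05 (15.1% of all genes) and DESeq2 called 0. That 1 member was Ighm, lower in males (edgeR log2 change -0.8), and not Jchain. Jchain was not called between male and female controls on HFCF (log2 -0.81) or on HF (log2 -0.51). Its lower medians in males are therefore a description only. The spread over the female libraries was wide: LF control replicate 1 held 19.3 CPM of Jchain against 3.79, 5.09 and 6.9 CPM in the other LF controls.

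The tests of whether an effect differed between diets or sexes gave 0 calls for the members. For the labelled knockout on HFCF against that on HF, 0 of 10 were called in males (1.56% of all genes were) and 0 of 9 in females (0.0%), with 0 unadjusted p under 0.05 in both (17.1% and 4.32% of all genes). For the diet effect in males against females, 0 of 10 were called in controls (0.00646%) and 0 of 9 in labelled knockouts (0.013%), with 1 and 0 unadjusted p under 0.05 (16.5% and 11.9% of all genes). The calls in male labelled knockouts are thus not shown to differ from the values in male controls or in females.

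Other genes of the same cells were read from lists, to be set against all genes: on HFCF against HF, 21.6% of all genes rose and 20% fell in male labelled knockouts, 16.9% rose and 13.8% fell in female controls, 13% rose and 9.31% fell in male controls, and 8.44% rose and 6.01% fell in female labelled knockouts. Of 25 T cell genes, 15 were tested between HFCF and HF male labelled knockouts, and 7 rose and 1 fell, with a median log2 change of 0.73. The smallest adjusted p belonged to the gene that fell, Zap70, the kinase that binds the activated receptor (15.4 ± 1.55 to 5.22 ± 0.915 CPM, SD, n = 6 each, log2 -1.55, SE 0.11, edgeR adjusted p = 5.17e-07), and the next to Themis, a protein of receptor signalling, which rose (2.18 ± 0.992 to 10.0 ± 2.44 CPM, log2 2.20, SE 0.26, adjusted p = 1.35e-05). Il7r, the receptor of a T cell survival cytokine, went from 0.581 ± 0.267 to 1.67 ± 0.513 CPM (SD, n = 6 each; log2 1.53, SE 0.29, edgeR adjusted p = 0.000761), and Cd6, a T cell adhesion receptor, from 0.348 ± 0.192 to 0.869 ± 0.327 CPM (log2 1.32, adjusted p = 0.00837). In the female controls 18 were tested, of which 6 rose and 2 fell on HFCF against HF (median 0.86), led by Il7r (0.496 ± 0.185 to 1.92 ± 0.317 CPM, n = 4 each, log2 1.94, edgeR adjusted p = 0.00561), while Zap70 fell (19.5 ± 5.25 to 8.68 ± 2.3 CPM, log2 -1.15, adjusted p = 0.00869). In male controls 18 were tested, and 1 rose and 1, Zap70, fell. In female labelled knockouts 16 were tested, and 0 rose and 1 fell. For HF against LF in female controls 16 were tested and 0 were called with edgeR, 10 having an unadjusted p under 0.05, with a median log2 change of -1.11.

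Of 16 cytotoxic and natural killer cell genes, 7 were tested in male labelled knockouts on HFCF against HF, and 4 rose: Klrk1, Ctsw, Klrd1 and Nkg7. Klrk1, which encodes the activating receptor NKG2D, went from 1.73 ± 0.344 to 3.26 ± 0.495 CPM (SD, n = 6 each; log2 0.94, edgeR adjusted p = 0.000541). Nkg7, a granule protein, went from 0.785 ± 0.269 to 1.47 ± 0.529 CPM (log2 0.93, adjusted p = 0.0331). In female controls 9 were tested and 1 rose, Nkg7. In male controls 8 were tested and 2 rose, Ctsw and Klrk1, and in female labelled knockouts 0 of 8 were called with edgeR, 0 having an unadjusted p under 0.05. Whether these groups differed was not tested. Ifng had a median of 0 reads over all libraries.

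Of 16 B cell genes, 13 were tested in male labelled knockouts on HFCF against HF and 5 rose, among them Cd72 (4.66 ± 1.39 to 11.8 ± 2.41 CPM, SD, n = 6 each, log2 1.36, edgeR adjusted p = 5.31e-05) and Cd22 (2.29 ± 1.19 to 5.07 ± 1.3 CPM, log2 1.16, adjusted p = 0.00319), both inhibitory receptors of B cells, Cd37 (4.82 ± 0.461 to 6.83 ± 1.12 CPM, log2 0.52, adjusted p = 0.00364), a tetraspanin of B cells and other leukocytes, and Pax5 (0.567 ± 0.275 to 1.07 ± 0.379 CPM, log2 0.93, adjusted p = 0.0386), the transcription factor of B cell identity. On HFCF against HF in female controls 12 were tested and 4 rose, in male controls 13 were tested and 3 rose, and in female labelled knockouts 0 of 14 were called with edgeR, 1 having an unadjusted p under 0.05. On HFCF against LF in female controls, where 18.4% of all genes rose and 16.8% fell, 14 were tested, and 2 rose (Cd22 and Cd72) and 3 fell, among them Ms4a1, which encodes CD20 (1.29 ± 0.471 to 0.508 ± 0.288 CPM, n = 4 each, log2 -1.33, edgeR adjusted p = 0.0457), and Ighd, the constant region of IgD (2.61 ± 0.705 to 1.12 ± 0.463 CPM, log2 -1.23, adjusted p = 0.0191). Across the 48 libraries Cd72 and Cd22 correlated with the summed macrophage markers at Pearson r of 0.867 and 0.809. Cd79a, Cd79b and Ighm did at 0.107, 0.326 and 0.506. These are descriptions over libraries that share groups. The antigen receptor genes Cd79a and Cd79b were not called in any of the 15 comparisons, under any of the alternatives.

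Of 17 plasma cell and secreted antibody genes, 12 were tested in male labelled knockouts on HFCF against HF, and 1 rose and 4 fell. Those with the smallest adjusted p were not restricted to plasma cells: Pigr, which carries antibody across epithelia, fell from 2050 ± 270.0 to 1210 ± 144 CPM (SD, n = 6 each), Xbp1 from 257 ± 35.0 to 185 ± 11.4 CPM and Sdc1 from 308 ± 33.7 to 221 ± 27.4 CPM. Prdm1, a regulator of plasma cell maturation, rose from 1.65 ± 0.55 to 3.22 ± 0.421 CPM. On HFCF against HF, 0 rose and 3 of 14 tested fell in female labelled knockouts, among them Iglc2 and Ighg2c. In female controls 1 rose and 1 fell of 14, and in male controls 0 rose and 2 fell of 11. On HFCF against LF in female labelled knockouts 14 were tested, where 8.26% of all genes rose and 3.74% fell. Of these Prdm1 rose, and 3 antibody genes fell: Igha (log2 -1.07), Ighg2c (-1.78) and Ighg2b (-1.35). The 16 chemoattractant, adhesion and survival genes were read on HFCF against HF. In male labelled knockouts 6 of 11 tested rose, and in female controls 7 of 11. In male controls 4 of 10 rose, and in female labelled knockouts 3 of 11 rose and 1 fell. They included Cxcl16 (10.5 ± 2.12 to 22.3 ± 4.03 CPM in the male labelled knockouts), the ligand of CXCR6, and Vcam1 (19.4 ± 3.43 to 40.9 ± 9.3 CPM), which lymphocytes bind on vessel walls.

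Some listed T cell genes had patterns unlike the CD3 genes. Themis measured 14.8 to 31.4 CPM in HF male controls and 1.17 to 3.67 CPM in HF male labelled knockouts, with no overlap (log2 -3.25, SE 0.25, edgeR adjusted p = 6.94e-07). Zap70 rose from 8.20 ± 1.86 to 15.4 ± 1.55 CPM (SD, n = 6 each; log2 0.90, adjusted p = 0.000278) in the same comparison, and Tox, a factor of T cell exhaustion, fell from 11.8 ± 1.08 to 7.57 ± 1.34 CPM (log2 -0.65, adjusted p = 0.00095). Cd3e in these groups had means of 0.927 and 0.764 CPM. Across the 48 libraries Themis, Zap70 and Tox correlated with the summed CD3 genes at r of -0.075, 0.024 and 0.021, against 0.511 for Lck and 0.44 for Cd2. Lck, the kinase bound to CD4 and CD8, fell from 1.69 ± 0.538 to 0.783 ± 0.266 CPM in HF male labelled knockouts (log2 -1.11, adjusted p = 0.00922), while Cd4 rose.

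**Figure D4:**
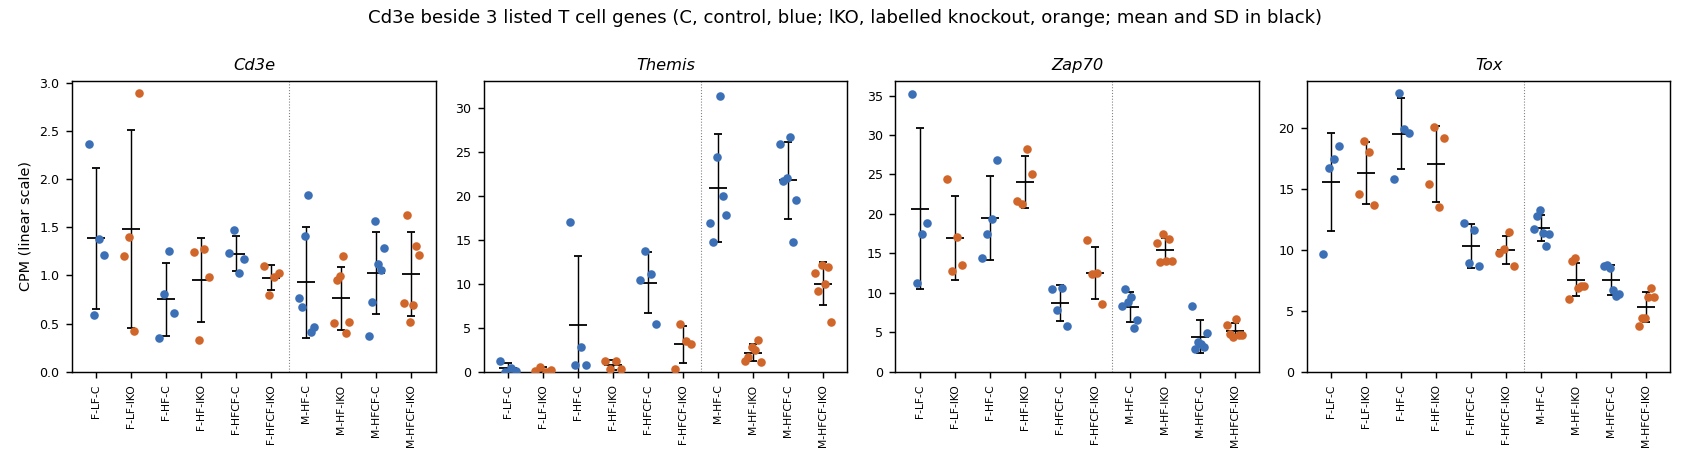
CPM (linear y axes, each with its own range) of Cd3e, Themis, Zap70 and Tox per library by group (x axis; C, control; lKO, labelled knockout), with group mean and SD in black. Themis is at 14.8 to 31.4 CPM in HF male controls and 1.17 to 3.67 CPM in HF male labelled knockouts, whereas the Cd3e values of these groups overlap.

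Among themselves the members varied together only in part. Over the 48 libraries the highest Pearson r of log2 CPM was 0.625, between Cd8a and Cd8b1, the 2 chains of 1 receptor, and it was 0.545 once group means were removed. Cd3e and Cd8a followed at 0.593, Cd3d and Cd3e at 0.5, and a T cell with a B cell gene, Cd3e and Cd79b, at 0.469 (0.518 within groups). Further down, Cd79a and Cd79b stood at 0.391 and Ighm and Jchain at 0.36. Cd4 correlated with the summed CD3 genes at 0.336 and with the macrophage list at 0.462, and Ighm at 0.232 and 0.506. These values are descriptions; the libraries share groups, and low reads lower every r. The genes most like Cd3e were Gimap3 (r 0.692), Ccl5 (0.678), Rasgef1b (0.619), Arhgap45 (0.596) and Lck (0.588), and those most like Cd79a were H2-Ob (0.581), Gimap1 (0.517), Atp2a3 (0.498), Siglecg (0.472) and Ighd (0.471), among genes averaging 1 CPM or more.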

How the data were processed

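RNA from 48 whole livers was measured. The authors deposited raw read counts, as integers for every gene and library and not normalized, per the file headers; the libraries were not strand specific, per the labels' protocols. STAR 2.6.1, HTSeq 0.6.1, DESeq2 and the build GRCm38 are named in the submitters' processing notes, with no role given. The counts of 11 deposited tables were joined by gene (0 of 1341082 repeated values differed, 0 columns lacked a sample), and genes absent from a table took 0 there. Depth was 15338239 to 22072884 reads on genes; p-values over samples measure the spread between these livers.

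Each of 15 comparisons was fitted to its 2 groups alone, and each of 4 interactions to its 4 groups, with edgeR 4.0.16 in R 4.3.3: TMM factors, filterByExpr, the quasi-likelihood F test and Benjamini-Hochberg adjustment over all genes tested. CPM values use TMM factors over all libraries. The ratio of Cd8a to Cd4 was tested with a 2-sided exact permutation test. Alternatives were DESeq2 1.42.0 size factors, its Wald test, no filter, one fit over all groups, a block for the replicate number, omitting each library, and 1 read added in the ratio. The scripts were tested on simulated data.

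The members and the gene lists were chosen with earlier results of these data known, so no list is independent evidence. Of 144 list genes 138 were found. Log2 changes are given for called members, for uncalled members where an alternative called them, and for Cd8b1 without the filter. They are also given for Ighm and Jchain between male and female controls, where no alternative called them, and as ranges over members. Genes of a list are named from the 4 called with the smallest adjusted p in a comparison. Cd2 and the correlation of Lck were added as values for comparison.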

Additional observations from a re-analysis of the deposited data

Results flagged for a closer look

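Of 100 combinations of a member and a group, 9 held a library far from the rest of its group by Dixon's criterion on CPM. Chance gives about 1 in 20 for normally distributed values, which was not checked for these low counts. An excess of aberrant livers is therefore not shown. The 125.0 CPM of Ighm in female HF labelled-knockout replicate 3 was not flagged. Cd4 was 2.86 CPM (44 reads) in male HF labelled-knockout replicate 6, against 0.828 to 1.58 CPM in the rest of the group, and 0.747 CPM (12 reads) in female HF control replicate 3, against 0.368 to 0.404 CPM. Ighm was 44.1 CPM (699 reads) in male HF labelled-knockout replicate 4, against 12.1 to 21.4 CPM. Jchain was 12.9 CPM (255 reads) in female HFCF control replicate 2, against 3.2 to 4.54 CPM, and low, at 1.78 CPM (31 reads), in male HF control replicate 4, against 3.76 to 4.92 CPM. Cd79b was 2.48 CPM (57 reads) in male HFCF control replicate 3, against 1.55 to 1.77 CPM. Cd3g was 1.91 CPM (36 reads) in male HFCF labelled-knockout replicate 4, against 0.515 to 0.969 CPM, and Cd3d was 1.41 CPM (24 reads) in female LF control replicate 1, against 0.274 to 0.458 CPM. Cd8b1 was 0.231 CPM in female HF control replicate 1, which is 4 reads, against 0.0613 to 0.0623 CPM. Of these, the male HF labelled knockouts high in Cd4 and in Ighm enter a comparison in which the same gene was called.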

How the results depend on the processing

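Cd8a and Ighm on HFCF against HF in male labelled knockouts were called under all 5 alternatives and without any 1 library (2 to 2 members called). Cd4 in HF males was lost with all groups in one fit (0 members called); leaving out 1 library gave 0 to 2. The DESeq2 Wald test called 1 member (Ighm) for the labelled knockout in HFCF males, 2 for HFCF against HF in female controls, 1 (Cd8a) for HF against LF in female controls and 1 (Jchain) for HFCF against LF in female labelled knockouts, where edgeR with the filter called 0. No filter called 1 (Ighm) for the labelled knockout in HFCF males, 2 (Cd8b1, Ighm) for HFCF against HF in female controls, 1 (Jchain) for HFCF against LF in female labelled knockouts, 1 (Ighm) for HFCF against LF in female controls and 1 (Cd8b1) for male against female HF controls. All groups in one fit called 2 (Cd4, Cd8b1) for HFCF against HF in female controls and 1 (Cd8b1) for male against female HF controls. Leaving out 1 library gave 0 to 1 calls for the labelled knockout in HFCF males, HFCF against HF in male controls, and HFCF against LF in female controls and labelled knockouts, 0 to 2 for HFCF against HF in female controls, and 0 elsewhere. The cause was not tested.

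The deviations of same-numbered livers from their group means correlated at -0.222 to 0.339, and the main fits did not pair livers by number. These correlations cannot exclude that same-numbered mice shared a litter or a cage. With the replicate number as a block, Cd4 in HF males was not called (0 members, log2 1.02, adjusted p = 0.0797), and 1 member, Ighm, was called for the labelled knockout in HFCF males (0.77, 0.0351), for HFCF against HF in male controls (0.51, 0.0323) and for HFCF against LF in female controls (0.91, 0.0169).

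The Cd8a to Cd4 ratio passed in no setting, and kept its direction with 1 read added. A single comparison with 4 libraries in a group could not have passed. Leaving out 1 library turned the sign of uncalled differences: from -0.45 to 0.14 for the labelled knockout on HF and -0.18 to 0.69 on HFCF in females, and in female labelled knockouts -0.43 to 0.16 for HFCF against HF, -0.24 to 0.36 for HF against LF and -0.34 to 0.2 for HFCF against LF. Depth limits the T cell genes most, at a median of 6 to 19 reads per library.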
